A study of Mus musculus with 42 samples.

Results

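The genes described here carry ketone bodies and other monocarboxylates across membranes and break ketone bodies down in mitochondria. They are the 3 carriers Slc16a1, Slc16a7 and Slc16a3, the carrier chaperone Bsg and the enzymes Bdh1, Oxct1 and Acat1. They were chosen by function, matched by symbol, and all 7 were found among the 35275 genes listed in each of the deposited count tables. All 7 passed the filter on low counts in every edgeR fit.

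Gene expression was measured by RNA-seq of total RNA from the cerebellum of male mice of strain C57BL/6 (C57/BL6NTac in the series' design text). From 3 months of age the mice were fed ad libitum (AL), fasted for 16 h each day (IF16) or fasted for 24 h on alternate days (EOD), and tissue was taken at 6 months of age. A second set of mice followed the same regimens and then ate ad libitum for 2 months before collection at 8 months. These groups are named EOD-R, IF16-R and AL-R after the earlier regimen. There were 5 libraries per group, 30 over the 6 groups, with between 26799825 and 36167435 counts per library. The labels number the libraries as replicates without naming animals, so p-values measure the spread between these libraries. The hour of collection relative to feeding is not given in the sources used here, and no ketone body measurement was used here. In tissue RNA, fewer cells of a type and less RNA per cell cannot be told apart. Granule and Purkinje cell markers, which define cerebellar cortex, were detected in every library, with none of the 7 markers of either type at 0.

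Ketone bodies are made mainly by the liver during fasting and enter the brain through proton-linked monocarboxylate carriers, which also move lactate and pyruvate. Slc16a1 encodes MCT1, known in the brain from capillary endothelium and glia. Slc16a7 encodes MCT2, a carrier of high affinity known mainly from neurons, and Slc16a3 encodes MCT4, a carrier of low affinity known from astrocytes and other glycolytic cells. Bsg encodes basigin, a membrane glycoprotein that MCT1 and MCT4 need to reach the cell surface. In mitochondria, BDH1 oxidizes beta-hydroxybutyrate to acetoacetate, OXCT1 (also called SCOT) activates acetoacetate with coenzyme A from succinyl-CoA and commits it to oxidation, and ACAT1 splits acetoacetyl-CoA into acetyl-CoA.

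Slc16a1 had the smallest p of the 7 genes in EOD against controls, both at the end of the regimens and after refeeding, although neither difference passed adjustment over all genes and the fold change of Slc16a7 was larger in the first. Its promoter is therefore shown, as the 250 bases before the start of transcription, from RefSeq on GRCm38.p6 (chr3:104638414-104638663, plus strand). Capitals mark matches to searched motifs.
Slc16a1 promoter: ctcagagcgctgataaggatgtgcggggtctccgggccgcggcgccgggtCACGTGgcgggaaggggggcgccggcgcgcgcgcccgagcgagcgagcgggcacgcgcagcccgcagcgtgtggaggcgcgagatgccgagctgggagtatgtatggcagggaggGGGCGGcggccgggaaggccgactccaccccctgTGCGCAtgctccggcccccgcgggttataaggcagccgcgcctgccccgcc
The first capitals are an E-box, CACGTG, the palindromic element of basic helix-loop-helix factors. It begins 200 bases before the start site and contains the shorter hypoxia element core ACGTG on both strands. The next are a GC box, GGGCGG, beginning 85 bases before the start, and an NRF1 core, TGCGCA, beginning 51 bases before it.

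Motif letters were searched on both strands in 32851 mouse promoters of the same length. The E-box was held by 6.02% of them, ACGTG by 16.6%, the GC box by 32.7% and the NRF1 core by 6.43%. With a GC content of 76.4%, the Slc16a1 promoter was richer in G and C than 97% of these promoters. The CCAAT box (CCAAT), the TATA box (TATAAA), a CRE core (TGACG), a nuclear receptor core (AGGTCA) and a FOXO element (GTAAACA), held by 33.8%, 12.4%, 17.8%, 14% and 3.17% of promoters, had no match in this window. Promoters of 4 of the 7 genes were matched in the RefSeq table. That of Slc16a3 (chr11:120948817-120949066) had a GC content of 73.6%, matches to ACGTG beginning 27 and 14 bases before the start, a GC box beginning 48 bases before it, and TGACG at 29 bases, which overlaps the more distal ACGTG. Oxct1 held a single ACGTG, 97 bases before the start, and neither of the 2 Bdh1 promoters held any of the motifs. These matches are letters found in a window, not measured binding sites.

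The levels of the 7 genes spanned a wide range and kept nearly the same order in every library. Levels between genes are compared as FPKM, which divide a count by the gene's length and the library's total. Bsg was by far the most abundant, with a median of 434 FPKM over the 30 libraries (range 401 to 660), above 99.7% of the genes tested by mean FPKM. Oxct1 followed with 71.7 FPKM (66.6 to 80.1), then Acat1 with 25.6 (21 to 28.6), Bdh1 with 15.1 (13.2 to 18.2) and Slc16a1 with 10.3 (7.77 to 12.6). Slc16a7 had a median of 1.43 FPKM (0.505 to 1.97) and Slc16a3 of 0.364 FPKM (0.242 to 0.597). No neighbours in this order overlapped across libraries except Slc16a7 and Slc16a3, and those were inverted in AL replicate 4 alone.

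**Figure D1:**
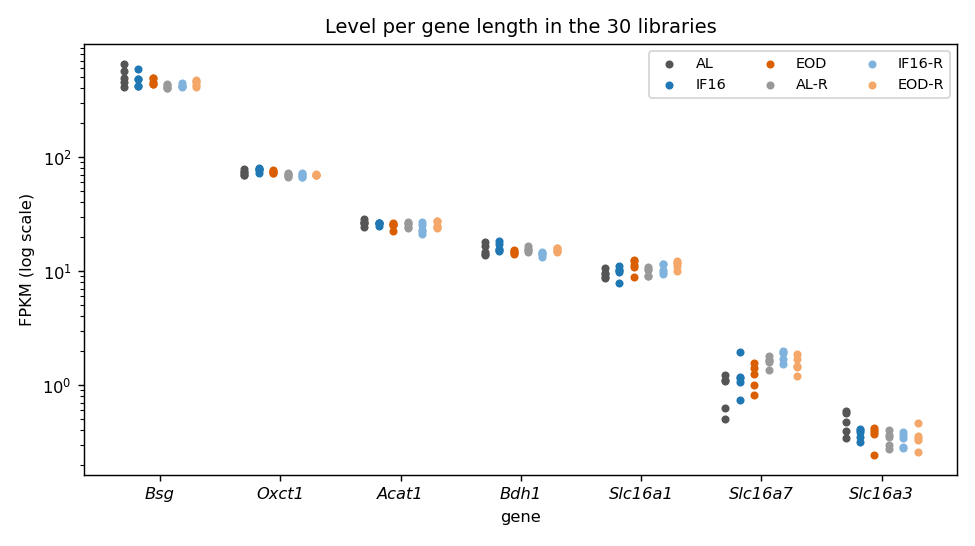
Deposited FPKM of each gene in every library (log scale on the y axis; each point is 1 library, coloured by group). Bsg lay between 401 and 660 FPKM and Slc16a3 between 0.242 and 0.597 FPKM, with the other genes in the same order in each group.

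Slc16a1 was the most abundant of the 3 carriers by this measure. It made up a median of 86.1% of the summed FPKM of Slc16a1, Slc16a7 and Slc16a3 (range 80.6 to 90), against 11.1% for Slc16a7 and 2.98% for Slc16a3. Slc16a11, a family member outside this sum, had a higher level than Slc16a1. Its group means ran from 75.9 FPKM in IF16-R to 94.7 FPKM in AL. Summed over the 3 carriers, EOD averaged 12.7 ± 1.68 FPKM, IF16 11.4 ± 1.49 and AL 10.8 ± 0.988, and after refeeding EOD-R averaged 13.2 ± 0.795, IF16-R 12.6 ± 0.913 and AL-R 11.8 ± 0.85 (SD, n = 5 each). Among the enzymes, Oxct1 stood 4.84 times above Bdh1 (median ratio of FPKM, 4.11 to 5.31) and 2.86 times above Acat1 (2.51 to 3.42). The transcript of the committing enzyme was thus the most abundant of the 3 in all libraries.

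The comparisons with ad libitum controls asked whether fasting changed these transcripts, and those after refeeding whether a difference was present 2 months later. None of the 7 genes was called in any of the 6 pairwise comparisons within the sets by edgeR's quasi-likelihood test at a Benjamini-Hochberg adjusted p under 0.05. In IF16 against AL, 0 of 7 were called, where 0.0483% of all genes tested were. In EOD against AL it was 0 of 7 against 0.0664%, and in EOD against IF16 0 of 7 against 0.00%. After refeeding, it was 0 of 7 against 0.170% in IF16-R against AL-R, 0 of 7 against 0.0426% in EOD-R against AL-R, and 0 of 7 against 0.0182% in EOD-R against IF16-R. DESeq2 also called none of the 7 in these comparisons. It gave no adjusted p for Slc16a3 and Slc16a7 in EOD-R against AL-R and in EOD-R against IF16-R, so they could not be called there. With calls this rare among all genes, a count of 0 does not set these genes apart.

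At an unadjusted p under 0.05, few of the 7 stood out. In IF16 against AL there were 0 of 7, where 9.92% of all genes passed that mark. In EOD against AL there was 1 of 7, Slc16a1, against 14.4% of all genes, and it was higher, as 7.02% were. In EOD against IF16 there were 0 of 7 against 3.62%. In IF16-R against AL-R there was 1 of 7, Bdh1, against 9.58%, and it was lower, as 4.83% were. In EOD-R against AL-R there were 2 of 7, Slc16a1 and Bsg, against 8.50%, and both were higher, as 4.51% were. In EOD-R against IF16-R there were 2 of 7 against 9.75%, with Bdh1 higher (4.99% of all genes were) and Slc16a7 lower (4.76%).

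The library values of the compared groups overlapped for all 7 genes in all 6 comparisons. Among all genes tested the groups did not overlap for 1.51% in IF16 against AL, 2.92% in EOD against AL and 0.676% in EOD against IF16. After refeeding the shares were 2.18% in IF16-R against AL-R, 1.95% in EOD-R against AL-R and 1.29% in EOD-R against IF16-R. The median log2 fold change of the 7 was 0.06 in IF16 against AL and -0.06 in EOD against AL, where the medians of all genes tested were -0.01 and -0.02. After refeeding it was 0.02 in both regimens against AL-R, with all-gene medians of -0.0023 and 0.0007. The regimens of a set share their control libraries, so their values are set side by side and not as independent results.

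**Figure D2:**
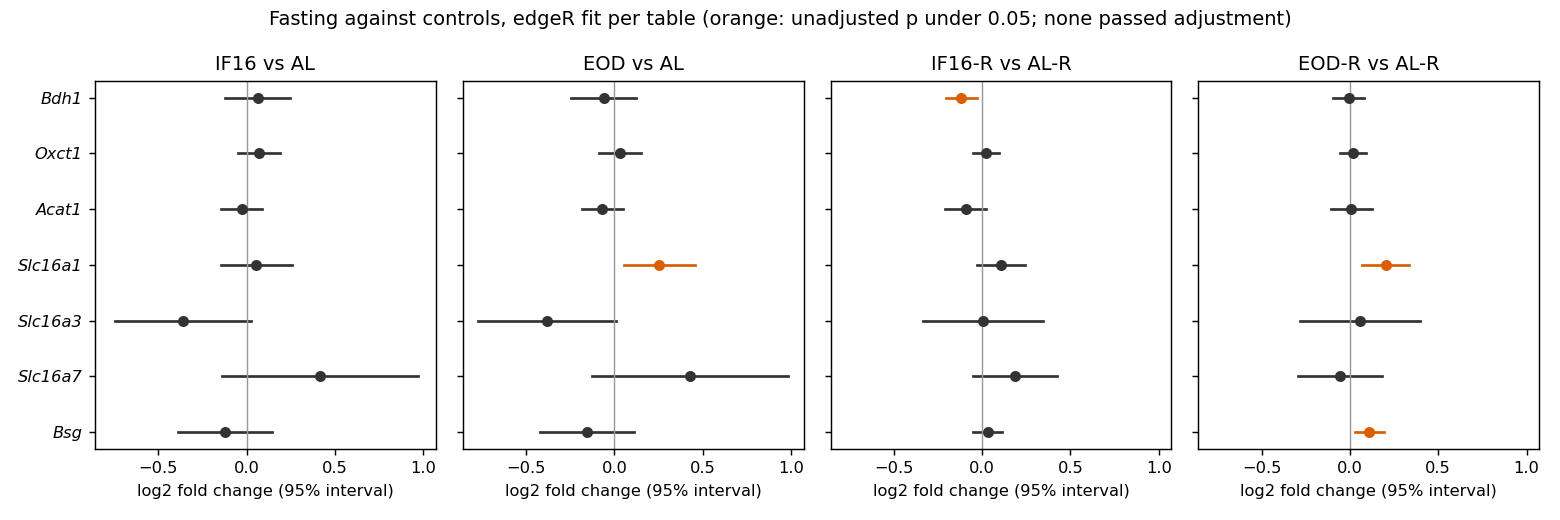
Log2 fold change of each gene (points) with its 95% interval (bars) in the 4 comparisons of a fasting regimen with its controls. Orange marks an unadjusted p under 0.05 (Slc16a1 in EOD and EOD-R, Bsg in EOD-R, Bdh1 in IF16-R), and no gene passed adjustment.

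Whether refeeding altered a regimen's difference from its controls was tested directly in a fit of all 30 libraries. For IF16, 0 of 7 genes were called, where 0.0474% of all genes were, and 0 of 7 had an unadjusted p under 0.05, where 7.21% of all genes did. For EOD, 0 of 7 were called against 0.0119%, and 0 of 7 had an unadjusted p under 0.05 against 10.3%. DESeq2 called none of the 7 in either test. The smallest p for IF16 was that of Bdh1, whose log2 difference between the refed and the fasted contrast was -0.18 (SE 0.0933, edgeR adjusted p = 0.715, unadjusted 0.0654). The smallest for EOD was that of Bsg, at 0.26 (SE 0.134, edgeR adjusted p = 0.494, unadjusted 0.0619).

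Slc16a1 had a higher mean in EOD than in AL and, 2 months after the fasting had ended, in EOD-R than in AL-R. The amounts did not differ detectably between the sets. Values are CPM, counts scaled by each library's total after TMM adjustment, which compare a gene between libraries. In AL the 5 libraries had 46.3, 42, 41.2, 39.2 and 39.7 CPM, and in EOD they had 49.1, 55.8, 54, 49.9 and 39.9 CPM. In 4 of 5 EOD libraries the level was above every AL library, and EOD replicate 5 lay within the AL range. The means were 49.7 ± 6.17 in EOD and 41.7 ± 2.85 CPM in AL (SD, n = 5 each), a log2 fold change of 0.26 (SE 0.0959, 95% interval 0.05 to 0.46) or 19.3% (edgeR adjusted p = 0.317, unadjusted 0.0168).

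After refeeding the same gene had 45.8, 47, 39.9, 44.8 and 40.1 CPM in AL-R and 53.7, 51.5, 51.5, 49 and 43.9 CPM in EOD-R. Again 4 of 5 libraries of the EOD arm lay above every control library, and replicate 5 lay among the controls. The means were 49.9 ± 3.77 in EOD-R and 43.5 ± 3.31 in AL-R (SD, n = 5 each), a log2 fold change of 0.20 (SE 0.0645, 95% interval 0.07 to 0.34) or 14.9% (edgeR adjusted p = 0.377, unadjusted 0.00577). The difference between the contrasts was -0.06 on the log2 scale (95% interval -0.30 to 0.19, edgeR adjusted p = 0.856, unadjusted 0.639), so neither a loss nor a gain on refeeding was resolved.

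Averaged over the sets, which was added after these values were seen, Slc16a1 was 17% higher in the EOD arms (log2 0.23, SE 0.0598, edgeR adjusted p = 0.126, unadjusted 0.000711), at rank 91 by p of 16877 genes. In that average 0.107% of all genes were called and 15.5% had an unadjusted p under 0.05. Leaving out each library in turn gave log2 values from 0.21 to 0.27 and edgeR adjusted p from 0.039 to 0.252. The call was made only when EOD replicate 5 was left out, a library that is low for this gene. In the IF16 arms the averaged difference was 0.08 (edgeR adjusted p = 0.564). There 0.119% of genes were called and 12.2% had an unadjusted p under 0.05. The means were 43.3 ± 5.02 CPM in IF16 and 46.8 ± 4 in IF16-R (SD, n = 5 each), or log2 0.06 (95% interval -0.15 to 0.26) and 0.10 (-0.03 to 0.24) against their controls. Directly against each other, EOD stood 0.20 above IF16 on the log2 scale (95% interval -0.0034 to 0.40, edgeR adjusted p = 0.977, unadjusted 0.0536) and EOD-R 0.10 above IF16-R (-0.04 to 0.23, edgeR adjusted p = 0.674, unadjusted 0.15), so a difference between regimens was not shown.

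Markers of cells known to hold MCT1 are given beside this result. In EOD against AL 0.0664% of all genes were called by edgeR, and 14.4% had an unadjusted p under 0.05 (7.02% higher). In EOD-R against AL-R these shares were 0.0426% and 8.50% (4.51% higher). Of 11 endothelial markers none was called in EOD against AL by edgeR, 3 were lower and none higher at an unadjusted p under 0.05, and their summed level was 310 to 382 CPM in EOD and 368 to 405 CPM in AL. In EOD-R against AL-R, 1 of 11 was higher at that mark and none was called, with sums of 374 to 392 and 337 to 390 CPM. Of 8 oligodendrocyte markers, 1 was higher and 2 were lower in EOD at an unadjusted p under 0.05, and 4 were higher in EOD-R, with none called. Of 10 markers of astrocytes and Bergmann glia, none was called in EOD (1 lower at an unadjusted p under 0.05), whereas in EOD-R 1 (Gja1) was called and 5 were higher at that mark. All 5 red blood cell markers were lower in EOD-R at an unadjusted p under 0.05, with sums of 14.8 to 25.5 CPM against 8.7 to 114 in AL-R, and none was called. No marker of the 4 lists was at 0. Over the 15 libraries at the end of the regimens the r of Slc16a1 with the 8 marker lists ran from -0.344 to 0.384 (smallest adjusted permutation p = 0.442, rho from -0.304 to 0.429), and over the 15 after refeeding from -0.532 for red blood cells to 0.522 for endothelium (adjusted permutation p = 0.195 and 0.198). The part of such cells in its level was not tested further.

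Slc16a7, the neuronal carrier, varied more between libraries than any other gene of the group, and no fasting effect was resolved. Its level ranged over a factor of 3.86, from 1.96 to 7.57 CPM, on 65 to 245 counts per library. The AL libraries had 4.53, 4.19, 4.07, 1.96 and 2.42 CPM, those of IF16 2.81, 4.02, 7.15, 4.4 and 4.53, and those of EOD 4.71, 5.38, 3.78, 6.16 and 3.11. The groups overlapped widely, with AL replicates 4 and 5 and IF16 replicate 1 lowest of the set. The log2 fold change against AL was 0.42 in IF16 (95% interval -0.14 to 0.97, edgeR adjusted p = 0.583, unadjusted 0.131) and 0.43 in EOD (-0.13 to 0.98, edgeR adjusted p = 0.402, unadjusted 0.122).

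After refeeding Slc16a7 was steadier. AL-R had 6.63, 5.97, 6.19, 5.12 and 6.28 CPM, IF16-R had 5.69, 6.4, 7.57, 7.42 and 7.32, and EOD-R had 5.44, 5.48, 4.54, 7.12 and 6.37. All groups overlapped. EOD-R was below IF16-R by 0.24 on the log2 scale (95% interval -0.48 to -0.0033, edgeR adjusted p = 0.512, unadjusted 0.0472), which did not pass adjustment. With each library's length gradient, defined below, as a covariate, this difference was -0.01.

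Slc16a3, the glycolytic carrier, was the rarest of the group, on 35 to 88 counts per library, so that counting error adds to its spread. AL had 1.45, 2.05, 1.7, 2.66 and 2.48 CPM, IF16 had 1.76, 1.74, 1.64, 1.36 and 1.54, and EOD had 1.67, 1.74, 1.6, 1.88 and 1.06. The highest values were those of AL replicates 4 and 5, and the groups overlapped. The log2 fold change against AL was -0.36 in IF16 (95% interval -0.75 to 0.03, edgeR adjusted p = 0.524, unadjusted 0.0652) and -0.38 in EOD (-0.77 to 0.01, edgeR adjusted p = 0.352, unadjusted 0.0535). Without AL replicates 4 and 5 and IF16 replicate 1 these values were -0.15 and -0.13. In the refed mice EOD-R averaged 1.51 ± 0.306 CPM, IF16-R 1.46 ± 0.214 and AL-R 1.45 ± 0.219 (SD, n = 5 each), so that EOD-R differed from AL-R by 0.06 and IF16-R by 0.0050 on the log2 scale.

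Bsg, the chaperone of MCT1 and MCT4, had a slightly higher mean in EOD-R than in AL-R and lower means under both regimens before refeeding, with no call in either set. It had 647, 604, 615, 660 and 634 CPM in AL-R and 627, 685, 721, 662 and 706 in EOD-R. In 4 of 5 EOD-R libraries the level was above every AL-R library, though by little in replicate 4. The means were 680 ± 36.9 and 632 ± 22.9 CPM (SD, n = 5 each), a log2 fold change of 0.11 (SE 0.0393, edgeR adjusted p = 0.434, unadjusted 0.0116). In IF16-R it was 646 ± 19.4 CPM (SD, n = 5), 0.03 above AL-R (95% interval -0.05 to 0.11).

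At the end of the regimens Bsg was spread most in the controls, where AL had 615, 687, 749, 1030 and 886 CPM. IF16 had 891, 744, 620, 740 and 648, and EOD had 692, 665, 753, 688 and 767. The highest libraries were AL replicate 4, IF16 replicate 1 and AL replicate 5, those with the lowest Slc16a7. The log2 fold change was -0.12 in IF16 (95% interval -0.39 to 0.14, edgeR adjusted p = 0.722, unadjusted 0.343) and -0.16 in EOD (-0.42 to 0.11, edgeR adjusted p = 0.501, unadjusted 0.235).

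**Figure D3:**
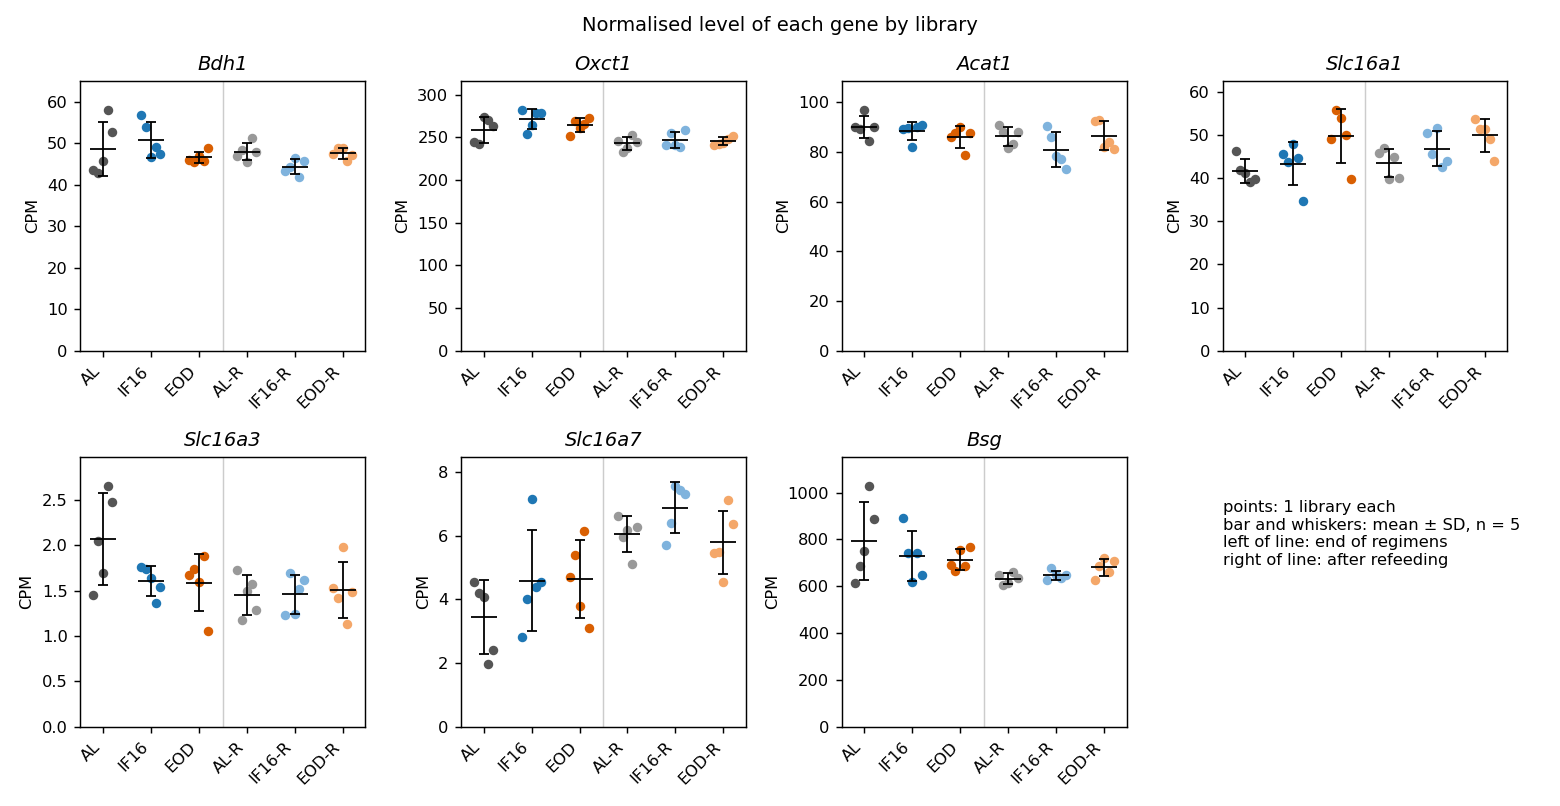
CPM of each gene in every library by group (points), with the mean and SD of 5 libraries (bars); the grey line parts the set of mice without refeeding from the refed set. Slc16a1 lay at 49.7 in EOD against 41.7 in AL and at 49.9 in EOD-R against 43.5 in AL-R. Oxct1 stayed close to its control means, and Acat1 lay lowest in IF16-R, at 80.9 against 86.2 in AL-R.

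Bdh1, which starts the use of beta-hydroxybutyrate, had its lowest mean in IF16-R, 7.82% below AL-R, without passing adjustment. IF16-R had 43.3, 44.3, 46.5, 41.9 and 45.6 CPM, where AL-R had 47, 48.4, 45.4, 51.2 and 47.8 and EOD-R had 47.5, 48.8, 48.9, 45.6 and 47.1. In 3 of 5 IF16-R libraries the level was below every AL-R and EOD-R library. The means were 44.3 ± 1.8 in IF16-R and 48 ± 2.12 in AL-R (SD, n = 5 each), a log2 fold change of -0.12 (SE 0.0411, edgeR adjusted p = 0.35, unadjusted 0.0102). EOD-R, at 47.6 ± 1.34 CPM (SD, n = 5), stood 0.11 above IF16-R (edgeR adjusted p = 0.37, unadjusted 0.0163) and -0.01 from AL-R (95% interval -0.09 to 0.08).

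The length gradients of IF16-R (1.01 to 1.05) and AL-R (0.983 to 1) did not overlap, so gradient and group go together in that comparison of Bdh1. With the gradient as a covariate its log2 value was -0.10 (edgeR adjusted p = 0.999). Of the 10 astrocyte and Bergmann glia markers 2 were called higher in IF16-R, where 0.170% of all genes were called. Of 8 oligodendrocyte markers 2 were higher at an unadjusted edgeR p under 0.05, where 9.58% of all genes passed. The part of these markers in the result was not tested. Before refeeding the Bdh1 levels of AL were 43.5, 42.9, 45.7, 58 and 52.7 CPM, those of IF16 56.7, 53.9, 46.7, 49 and 47.5, and those of EOD 46, 45.4, 46.9, 45.8 and 48.8. The groups overlapped, and AL replicates 4 and 5 and IF16 replicates 1 and 2 were highest. The log2 fold change was 0.06 in IF16 (95% interval -0.12 to 0.25) and -0.06 in EOD (-0.24 to 0.12).

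Oxct1, the committing enzyme of ketone body use, was the steadiest of the 7 genes, with a highest level only 1.21 times the lowest over 30 libraries (233 to 282 CPM). At the end of the regimens IF16 averaged 271 ± 11.8 CPM, EOD 264 ± 7.9 and AL 258 ± 14.8, and after refeeding IF16-R averaged 247 ± 9.08, EOD-R 245 ± 4.64 and AL-R 243 ± 7.79 (SD, n = 5 each). The log2 fold change was 0.07 in IF16 (95% interval -0.05 to 0.19), 0.03 in EOD (-0.09 to 0.15), 0.02 in IF16-R (-0.05 to 0.09) and 0.02 in EOD-R (-0.06 to 0.09). The intervals bound any change of Oxct1 more tightly than that of any carrier.

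Acat1, a thiolase that also serves isoleucine breakdown, ranged from 72.9 to 96.8 CPM over the libraries. Its highest level was 1.33 times the lowest, near the 1.38 of Bdh1. Its log2 fold change was -0.03 in IF16 (95% interval -0.14 to 0.09), -0.07 in EOD (-0.18 to 0.05), -0.09 in IF16-R (-0.21 to 0.02) and 0.01 in EOD-R (-0.11 to 0.12). The lowest libraries were IF16-R replicates 5, 4 and 3, at 72.9, 76.9 and 78.2 CPM, and the other IF16-R libraries lay within the AL-R range.

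Other genes of monocarboxylate transport and of lactate and pyruvate use were examined in 3 lists, and no gene of these was called by edgeR for a fasting regimen. Of the other ketone enzymes, Bdh2, a cytosolic relative of Bdh1, had a log2 fold change of -0.20 in EOD (edgeR adjusted p = 0.584) and of 0.04 in IF16 (edgeR adjusted p = 0.949). After refeeding it stood 0.45 above AL-R in EOD-R (edgeR adjusted p = 0.413, unadjusted 0.00871) and 0.30 above it in IF16-R (edgeR adjusted p = 0.547, unadjusted 0.0635).

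Of 11 other Slc16 carriers, all were tested and none was called for a fasting regimen. Slc16a13 had the smallest p against controls in each set, with log2 -0.16 in IF16, -0.20 in EOD, -0.17 in IF16-R and -0.24 in EOD-R (edgeR adjusted p = 0.228, unadjusted 0.00116 in EOD-R). Its EOD-R libraries, at most 11.1 CPM, lay just below all AL-R libraries, at least 11.2 CPM. Of all genes tested 1.95% did not overlap in that comparison. Of 6 genes for sodium-coupled carriers, relatives of basigin and surface receptors, 3 were tested (Nptn, Emb and the lactate receptor Hcar1) and none was called. The smallest unadjusted p against controls was 0.102 (Nptn in IF16, log2 0.09, adjusted 0.562).

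Of 12 genes of lactate and pyruvate use, none was called for a fasting regimen. Mpc1, a subunit of the mitochondrial pyruvate carrier, had the smallest p in IF16, at 10.8 against 7.98 CPM in AL (log2 0.43, edgeR adjusted p = 0.266, unadjusted 0.0015). Pdk4, a kinase that inhibits pyruvate dehydrogenase, had the smallest p in EOD, at 13 against 7.96 CPM (log2 0.71, edgeR adjusted p = 0.251, unadjusted 0.00377), and was 0.66 above AL in IF16. After refeeding Pdk4 stood 0.37 above AL-R under the former daily fast and 0.36 under the former alternate-day fast (edgeR adjusted p = 0.383 and 0.458, unadjusted 0.0141 and 0.0175). The smallest p in EOD-R was that of Dlat, a pyruvate dehydrogenase subunit (log2 -0.08, edgeR adjusted p = 0.45, unadjusted 0.0152).

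Between the regimens, and for the change of a regimen's effect on refeeding, no gene of the 3 lists was called. In EOD against IF16 the smallest p of the lactate and pyruvate list was that of Dlat (log2 0.11, edgeR adjusted p = 0.977, unadjusted 0.0695), and of the chaperone list that of Emb (0.16, adjusted 0.977). In EOD-R against IF16-R it was Mpc2, the other pyruvate carrier subunit (log2 0.13, edgeR adjusted p = 0.449, unadjusted 0.0308), followed by Nptn (0.04, adjusted 0.702) and Slc16a13 (-0.08, adjusted 0.766) for their lists. The change on refeeding had its smallest p for Mpc1 in IF16 (log2 -0.45, edgeR adjusted p = 0.375, unadjusted 0.00154) and for Dlat in EOD (-0.22, edgeR adjusted p = 0.294). For the remaining lists it was Slc16a12 (-0.35, adjusted 0.808) and Nptn (-0.10, 0.715) in IF16, and Slc16a12 (-0.45, 0.509) and Hcar1 (-0.15, 0.843) in EOD.

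**Figure D4:**
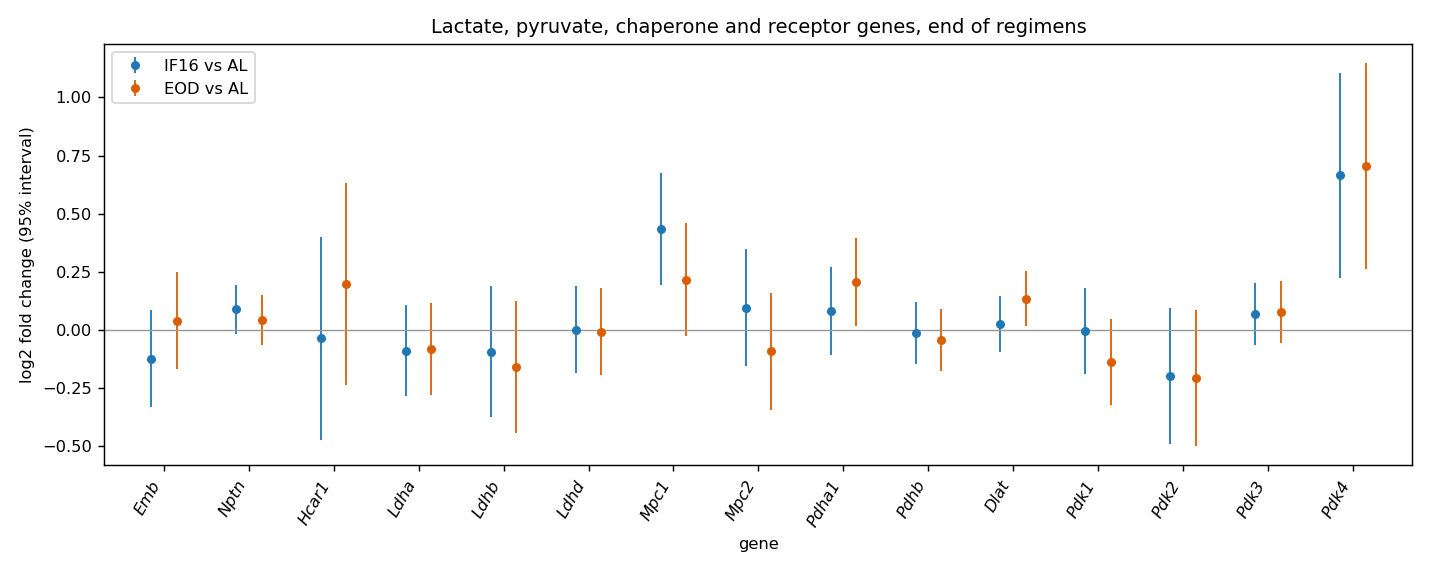
Log2 fold change (points) and 95% interval (bars) of the tested genes of the lactate and pyruvate list and of the chaperone and receptor list in IF16 and EOD against AL. Pdk4, at 0.66 and 0.71, and Mpc1 in IF16, at 0.43, stand highest, most intervals include 0, and no value passed adjustment.

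The ad libitum groups of the sets differed for 3 of the 7 genes, in a comparison where age, time of collection and deposited table cannot be told apart. In AL-R against AL, 3 of 7 genes were called by edgeR in the fit of 30 libraries, where 23.9% of all genes were, 11.5% higher and 12.4% lower. At an unadjusted p under 0.05 there were 4 of 7, where 40.0% of all genes passed. Slc16a7 was higher, at 6.04 ± 0.566 against 3.43 ± 1.16 CPM (SD, n = 5 each), with every AL-R library above every AL library (9.72% of genes tested did not overlap there). Its log2 difference was 0.81 (SE 0.21, edgeR adjusted p = 0.0113). Bsg was lower, at 632 ± 22.9 against 794 ± 166 CPM (log2 -0.33, adjusted 0.0175), and Slc16a3 was lower, at 1.45 ± 0.219 against 2.07 ± 0.508 CPM (log2 -0.51, adjusted 0.0315), both with overlap between the groups.

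These 3 calls depended on single libraries to unlike degrees. With each of the 10 libraries left out in turn, Slc16a7 was called in 9 fits, Bsg in 8 and Slc16a3 in 5. Without AL replicate 4 none of the 7 was called (Slc16a7 log2 0.66, edgeR adjusted p = 0.0548; Bsg -0.22, 0.101; Slc16a3 -0.41, 0.135), and without AL replicate 5 only Slc16a7 was (0.71, edgeR adjusted p = 0.0464). Slc16a3 also lost its call without AL-R replicate 2, 3 or 5 (adjusted 0.0572 to 0.0863). Once the length gradient entered the fit none was called, and the values were 0.26 for Slc16a7, -0.04 for Bsg and -0.32 for Slc16a3. Oxct1 was 0.09 lower on the log2 scale (edgeR adjusted p = 0.113, unadjusted 0.043), and Bdh1, Acat1 and Slc16a1 had log2 values of -0.02, -0.06 and 0.06.

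In the same comparison 5 of the 12 lactate and pyruvate genes were called, where 23.9% of all genes were: Ldhb (log2 -0.43), Ldha (-0.31) and Ldhd (-0.22), which encode lactate dehydrogenases, were lower, and the pyruvate dehydrogenase subunits Pdha1 (0.25) and Dlat (0.16) were higher. The ketone enzyme gene Bdh2 was lower (log2 -0.83, edgeR adjusted p = 0.00493). Without AL replicate 4 the calls of Ldha, Ldhd, Pdha1 and Dlat were lost (edgeR adjusted p 0.0683 to 0.171 for these 4). None of these 4 was called without AL replicate 5 either, while the calls of Ldhb and Bdh2 held when any single library was left out. The call of Ldhd held in only 3 of 10 such fits. Over all 18 alternatives, left-out libraries included, Ldhb was called in 15 and Bdh2 in 15, so other settings removed their calls. Their log2 values came as near 0 as -0.12 and -0.38. No other Slc16 carrier was called, the smallest p being that of Slc16a10, a carrier of aromatic amino acids (log2 0.34, edgeR adjusted p = 0.0576), nor was Emb (-0.18, edgeR adjusted p = 0.106), which had the smallest p of the chaperone list. Marker genes were read against the shares of all genes called in that comparison, 11.5% higher and 12.4% lower. Of 7 granule cell markers 3 were called higher, with sums of 6170 to 6290 CPM in AL-R and 5320 to 6260 in AL, and of 7 Purkinje cell markers 3, with sums of 7420 to 7710 and 5740 to 7040 CPM. Of 8 oligodendrocyte markers 4 were called lower, with sums of 5010 to 5540 and 5730 to 6700 CPM, and 3 of 5 red blood cell markers were called higher. Also called lower were 1 of 6 microglia, 1 of 10 astrocyte and 1 of 11 endothelial markers, which is too few to set against 12.4%. None of 11 choroid plexus markers was called, but all 11 had negative log2 values (median -1.37). Their sums were 162 to 2760 CPM in AL-R (median 173) and 181 to 5100 in AL (median 2880). Counts of calls with the choroid plexus mean as covariate are given at the end. The part of the other lists in the result was not tested.

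Much of the spread of 3 of the genes before refeeding followed a property of the libraries. The length gradient of a library says how steeply log2 CPM climbs with the log2 length of a gene. It was lowest in AL replicate 4 (0.793), IF16 replicate 1 (0.836) and AL replicate 5 (0.844), highest in EOD replicate 4 (1.09), and between 0.982 and 1.05 after refeeding. Over the 15 libraries at the end of the regimens, Slc16a7 rose with it, with a Pearson r of 0.925 (permutation p = 1e-05, the smallest the resamples can give, adjusted 0.00063) and a Spearman rho of 0.962 (permutation p = 1e-05, adjusted 0.00063). Leaving out the 2 libraries whose gradient lay farthest from the median gave 0.883. Bsg fell with it, with an r of -0.896 (permutation p = 2e-05, adjusted 0.00084; -0.945 without those 2) and a rho of -0.896 (permutation p = 1e-05, adjusted 0.00063). Bdh1 fell too, with an r of -0.817 (permutation p = 0.00022, adjusted 0.00462; -0.793 without those 2) and a rho of -0.737 (permutation p = 0.00231, adjusted 0.0582).

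These were among 126 relations of the 7 genes with the gradient and 8 marker lists in the 2 sets, of which 13 had an adjusted permutation p under 0.05 for r, all before refeeding. The same 3 genes followed the granule cell, oligodendrocyte and microglia lists, which is 9 more of the 13, but by rho only Slc16a7 with the granule cell list passed (adjusted permutation p of the other 8 from 0.0582 to 0.24). For Slc16a7 the granule cell list gave r = 0.891 (adjusted 0.00063; rho = 0.836, adjusted 0.00672; r = 0.831 without 2). The other relation was Slc16a3 with the endothelial list (r = 0.689, adjusted permutation p = 0.0429; rho = 0.539, adjusted 0.219), which fell to 0.416 without 2 libraries and so rests on them. After refeeding 0 of 63 relations passed, and that of Slc16a7 with the gradient was r = 0.669 (adjusted permutation p = 0.0558).

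With the gradient as a covariate in edgeR, the log2 fold change of Slc16a7 in EOD against AL went from 0.43 to -0.01, that of Bsg from -0.16 to 0.08 and that of Bdh1 from -0.06 to 0.08. Slc16a1 kept 0.22 in EOD against AL (edgeR adjusted p = 0.554, unadjusted 0.037) and 0.20 in EOD-R against AL-R (edgeR adjusted p = 0.347, unadjusted 0.0079). Without AL replicates 4 and 5 and IF16 replicate 1 together, the EOD value of Slc16a1 was 0.20 (edgeR adjusted p = 0.754, unadjusted 0.089).

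**Figure D5:**
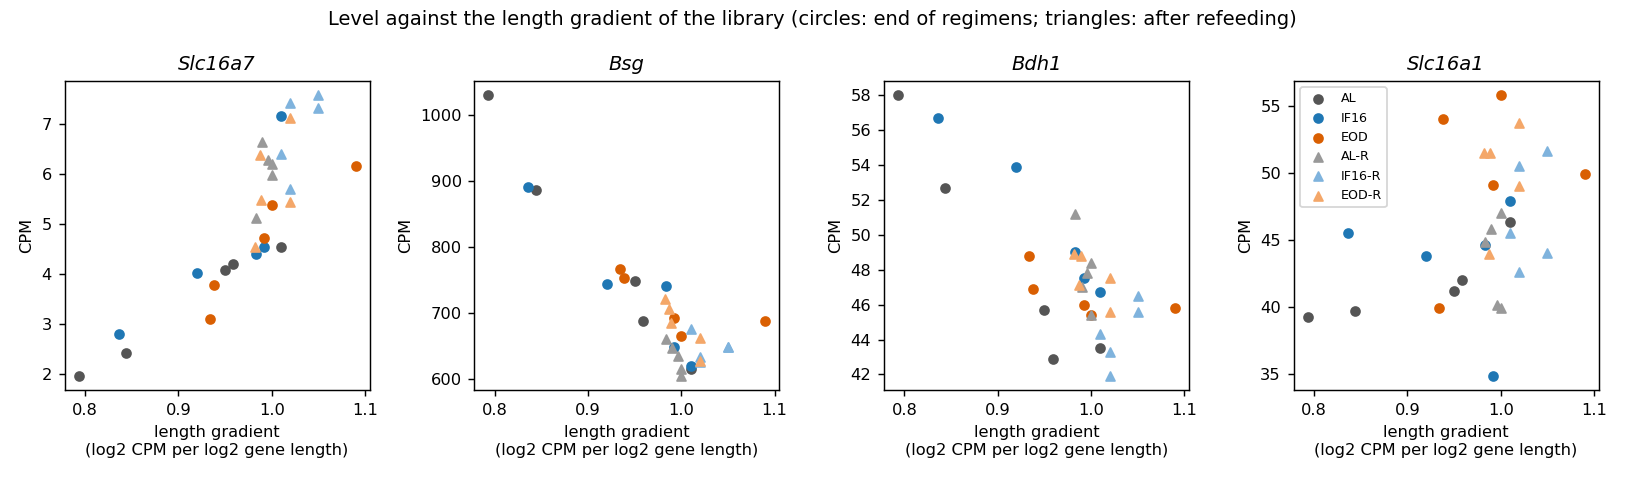
CPM of Slc16a7, Bsg, Bdh1 and Slc16a1 in each library (y axis) against the library's length gradient (x axis, log2 CPM per log2 gene length); circles are libraries from the end of the regimens and triangles those after refeeding. At the end of the regimens Slc16a7 rose with the gradient (r = 0.925) and Bsg (-0.896) and Bdh1 (-0.817) fell. For Slc16a1 the relation did not pass adjustment (r = 0.409, adjusted permutation p = 0.393). Its rho was 0.54 (permutation p = 0.0399, adjusted 0.219), so a weaker rise with the gradient was not excluded.

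The genes did not move as a block across libraries. Correlations of log2 CPM, centred within each set over 30 libraries, are given as descriptions, since the points share library properties such as the gradient. Among the 7 genes the strongest were Slc16a7 with Bsg (r = -0.825), Bdh1 with Bsg (0.745) and Bdh1 with Slc16a7 (-0.698), the genes that followed the gradient. Slc16a1 had no r beyond 0.287 with any of the others, and Oxct1 none beyond 0.382, which it had with Bsg. The chaperone Bsg and its partner Slc16a1 had r = -0.20, and Bsg and Slc16a3 had 0.499. Some of these differed between the sets. Before and after refeeding, Slc16a1 had -0.322 and 0.243 with Bsg, and 0.494 and -0.337 with Slc16a7. Bsg had -0.905 and -0.308 with Slc16a7, and 0.847 and 0.287 with Bdh1. Bdh1 with Slc16a7 (-0.727 and -0.597) and Bsg with Slc16a3 (0.524 and 0.494) changed less.

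Genes most alike in pattern were sought for each gene among protein-coding genes that averaged 5 CPM or more in each set. For Slc16a1 these were Kctd12b (r = 0.72), Adamts1 (0.709) and Erbb3 (0.705), and for Slc16a3 Litaf (0.687), Gmpr (0.685) and Tmem63a (0.669). For Slc16a7 they were Man1a2 (0.936), Zfp275 (0.933) and Vps13c (0.932), and for Bsg Npc2 (0.966), Akr1a1 (0.957) and Tonsl (0.952). For Bdh1 they were Cend1 (0.866), Bex2 (0.851) and Atp6v0e2 (0.85), for Oxct1 Gdi2 (0.81), Rpa1 (0.75) and Uba2 (0.731), and for Acat1 Tmem5 (0.839), Dffb (0.811) and Ankra2 (0.796). The lists of the 7 genes shared no gene. Within the sets, r was lower after refeeding for every gene named for Bdh1, Oxct1, Slc16a3, Slc16a7 and Bsg. It was higher for those of Acat1 and went both ways for those of Slc16a1. For Oxct1 it was 0.832 to 0.906 before refeeding and 0.394 to 0.529 after, and for Bdh1 0.895 to 0.93 and 0.581 to 0.717.

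In the deposited tables the genes lie as follows, on mouse build mm10 per the submitters' processing notes, each annotated as protein coding. Slc16a1 (ENSMUSG00000032902) is on chromosome 3, 104638668-104658462, Slc16a7 (ENSMUSG00000020102) on chromosome 10, 125226464-125328963, Slc16a3 (ENSMUSG00000025161) on chromosome 11, 120948480-120960868, and Bsg (ENSMUSG00000023175) on chromosome 10, 79704491-79711969. Bdh1 (ENSMUSG00000046598) is on chromosome 16, 31422280-31458901, Oxct1 (ENSMUSG00000022186) on chromosome 15, 4026383-4155344, and Acat1 (ENSMUSG00000032047) on chromosome 9, 53580522-53610382. Slc16a7 and Acat1 lie on the minus strand and the others on the plus strand.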

How the data were processed

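Per the submitters' processing notes the tools were STAR 2.5 and HTSeq 0.6.1 with build mm10; the authors deposited whole-number counts per gene in a table per set of mice, and FPKM, which equal count over gene length and library total. The annotation release and the handling of read strand are not given in the sources used here, so reads of antisense or overlapping genes cannot be told apart. The 12 H3K9me3 and input samples were not analysed here.

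Counts were tested in edgeR 4.0.16 (R 4.3.3) by the quasi-likelihood test after filterByExpr and TMM, with a fit per table of 15 libraries and a fit of all 30 for interactions and AL-R against AL. P-values were adjusted by Benjamini-Hochberg over all genes tested, and a gene was called under 0.05. Standard errors were derived from the F statistic. DESeq2 1.42.0, other scaling, no filter, a replicate block, covariates and left-out libraries were alternatives. Relations used permutation tests with 100000 resamples, two-sided, on log2(CPM + 0.1). The fits were tested on simulated data. The genes and lists were chosen with earlier results of these data known. Named are the 7 genes, every called gene of the other lists, and each list's gene with the smallest p in a comparison; some genes these rules name are not reported here. Standard deviations and overlap use TMM-scaled CPM from the fit of 30 libraries.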

Additional observations from a re-analysis of the deposited data

Results flagged for a closer look

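Of 42 sets of 5 libraries (7 genes in 6 groups), 1 held a library far from the others by Dixon's criterion, where chance alone would flag about 1 set in 20. Acat1 in IF16 replicate 3 had 82.1 CPM, where the other IF16 libraries had 89.3 to 90.9 CPM, a gap of 0.815 of the range against a critical value of 0.71. No cause of this value was tested.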

How the results depend on the processing

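No alternative called any of the 7 genes in the 6 pairwise comparisons or the interactions, whether by DESeq2, other scaling, no filter, covariates or left-out libraries. DESeq2 gave no adjusted p for Slc16a3 and Slc16a7 in EOD-R against AL-R and against IF16-R. The replicate block, too, called 0 of 7 in each. Replicate numbers were taken to pair libraries only if every same-numbered pair of deviations correlated above 0.1, which neither table met. It held for 4 of 15 pairs before refeeding, with 0 of 15 libraries closest to their own number, and for 13 of 15 after refeeding, with 9 of 15 closest (median r 0.239 against -0.103 for other pairs), a hint of pairing there from the data and not the design. The block moved the count of all genes called from 28 to 95 in IF16-R against AL-R, from 7 to 45 in EOD-R against AL-R and from 11 to 4 in EOD against AL. Over all genes DESeq2 called 94 where edgeR called 8 in IF16 against AL, 133 where edgeR called 11 in EOD against AL, 105 against 28 in IF16-R, 87 against 7 in EOD-R and 123 against 3 in EOD-R against IF16-R, without any of the 7 members. In AL-R against AL, where 3 of 7 genes were called, 0 were with the length gradient as covariate and 1 with the choroid plexus mean. With only the 2 groups in the fit 0 were called, and 0 without AL 4, AL 5 and IF16 1. Leaving out each library gave 0 to 3. For these changes in count the cause was not tested.

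Directions of uncalled values turned as follows (log2), among them values of some size (Slc16a7 0.4286 and Bsg -0.1560 in EOD against AL, Slc16a7 0.1849 in IF16-R against AL-R). With the length gradient, EOD against AL gave 0.0792 for Bdh1, -0.0083 for Slc16a7 and 0.0780 for Bsg; EOD against IF16 gave 0.0497 for Slc16a3, -0.2198 for Slc16a7 and 0.0886 for Bsg. After refeeding it gave -0.0729 for Slc16a7 in IF16-R, and -0.2167 for Slc16a3 and -0.0139 for Bsg in EOD-R against IF16-R. Bdh1 had -0.0799 in the EOD interaction and 0.1488 in AL-R against AL. With the choroid plexus mean, Slc16a3 had -0.0010 in EOD-R against IF16-R and Bdh1 0.0134 in AL-R against AL.

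Without AL 4, AL 5 and IF16 1 together, IF16 against AL gave -0.0157 for Slc16a1 and 0.0089 for Bsg, EOD against AL 0.0820 for Bdh1 and 0.0609 for Bsg, and EOD against IF16 0.0146 for Slc16a3, -0.1224 for Slc16a7 and 0.0521 for Bsg. Bdh1 had -0.0959 in the EOD interaction and 0.1308 in AL-R against AL. Averaged over both sets, Bdh1 in the IF16 arms was -0.0257.

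With each library left out, the ranges that crossed 0 were, for Bdh1, -0.1020 to 0.0139 (EOD), -0.0253 to 0.0172 (EOD-R), -0.0137 to 0.0828 (EOD interaction) and -0.0502 to 0.0476 (AL-R against AL). For Slc16a3 they were -0.0935 to 0.0974 (EOD against IF16), -0.0588 to 0.0734 (IF16-R), -0.0585 to 0.1464 (EOD-R) and -0.0674 to 0.1375 (EOD-R against IF16-R). For Slc16a7 they were -0.1194 to 0.2320 (EOD against IF16) and -0.1390 to 0.0219 (EOD-R), and for Bsg -0.0853 to 0.0537 (EOD against IF16). For Acat1 they were -0.0521 to 0.0002 (IF16) and -0.0194 to 0.0299 (EOD-R), for Oxct1 -0.0011 to 0.0335 (EOD-R) and -0.0169 to 0.0122 (EOD-R against IF16-R), and for Slc16a1 -0.0217 to 0.0898 (IF16 interaction). The averages over sets and the joint omission of 3 libraries were added after seeing the data. At 35 to 88 counts of Slc16a3, depth limits that gene most.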
